A study of Rattus norvegicus with 6 samples.

Results

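The genes of hepatic iron storage, uptake and systemic iron control were followed in the livers of rats fed a control or a Western diet. The group held 10 named genes, and 8 of them were found by symbol among 32158 loci with a symbol: *Fth1*, *Tf*, *Tfrc*, *Tfr2*, *Hamp*, *Aco1*, *Ireb2* and *Hfe*, each on 1 locus and each averaging 1 FPKM or more over the libraries. FPKM stands for fragments per kilobase of transcript and per unit of mapped fragments, the usual measure of mRNA level corrected for length and depth. The symbol *Ftl1* occurred only on a locus that the annotation merged with AC128792.1, so that locus is described beside the 8 genes and not counted with them. *Slc40a1*, which encodes the iron exporter ferroportin, is not analysed here.

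Male obesity-prone Sprague Dawley rats were fed the CD (control diet) or the WD (Western diet, rich in milk fat and sucrose) for 2 weeks, and were fasted overnight before the liver was taken. The study's account of these rats has them refed their own diet after the fast, while its methods state refeeding for a subset of each group. For each diet, RNA from 3 rats was pooled into 1 library of total liver RNA, 1 of the light sucrose gradient fraction, with mRNAs that carried at most 3 ribosomes, and 1 of the heavy fraction, with mRNAs that carried at least 4, giving 6 libraries. Because every group is 1 pooled library, there is no replicate error, no p-value was computed, and each difference compares 2 pools and not 2 populations of rats. Pooling hides the spread between rats, and an FPKM value is a share of its own library, so a heavy to light ratio compares shares and not amounts of mRNA.

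Iron taken up in excess of need is stored in ferritin, a shell of heavy chains (*Fth1*) and light chains (*Ftl1*), and is carried in blood by transferrin (*Tf*), which the transferrin receptors bind. Iron regulatory proteins (*Aco1*, *Ireb2*) bind stem-loops called iron-responsive elements: bound ahead of the coding sequence, as in ferritin and ferroportin mRNAs, they hold back translation when iron is scarce, and bound behind it, as in *Tfrc* mRNA, they protect the message from decay. Hepcidin (*Hamp*), secreted by hepatocytes, closes the route of iron into plasma by removing ferroportin from the cell surface, and *Hfe* and *Tfr2* are part of the machinery that sets its transcription.

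Numbers of fragments could be inferred for 4 of the 8 genes (*Fth1*, *Tfrc*, *Hamp*, *Aco1*) and for the merged *Ftl1* locus, and for these a ratio is given with an exact 95% counting interval, which covers counting error only. No such interval can be given for *Tf*, *Tfr2*, *Ireb2* and *Hfe*, whose depth is unknown. The genes with inferred numbers held 516639 fragments in the WD light library and between 225950 and 343941 in the other 5, and the median locus compared held 22 fragments in the WD light library and 8 to 13 in the others. The 6 hepatocyte markers (*Alb*, *Apoa1*, *Ttr*, *Serpina1*, *Cps1*, *Tat*) were above 0 in all libraries and summed to between 34582 and 117708 FPKM in each. The 5 erythroid markers found summed to 454 FPKM in the WD light library against 19.0 to 58.6 in the others, and of the 5 neutrophil markers *S100a8*, *S100a9* and *Camp* were at 0 in every library.

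*Tf* was by far the most abundant of these mRNAs and *Fth1* and *Hamp* followed. In total RNA the order in CD livers was *Tf*, *Fth1*, *Hamp*, the merged *Ftl1* locus, *Tfr2*, *Aco1*, *Hfe*, *Ireb2* and *Tfrc*. In WD livers *Hamp* stood above *Fth1* and *Tfrc* above *Ireb2*. In all 6 libraries the lower and upper bounds that Cufflinks gives overlapped for each of the 8 pairs of neighbours in this order, so no neighbours could be told apart by those bounds. The order changed with the fraction: *Fth1* was second only to *Tf* in both light libraries and below *Tf*, *Hamp* and *Tfr2* in both heavy libraries.

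**Figure D1:**
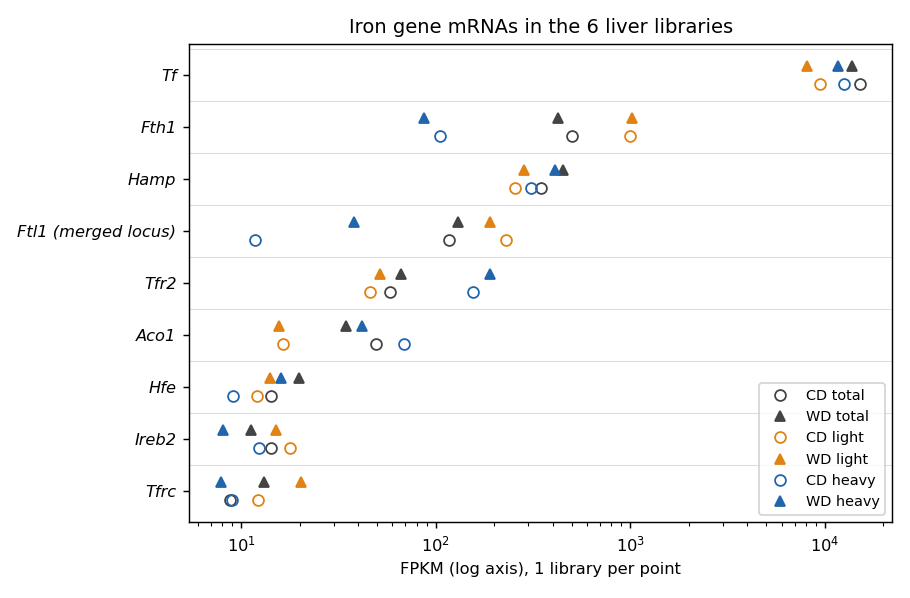
FPKM of each iron gene (rows, log axis) in the 6 libraries, 1 point per library, with circles for CD, triangles for WD and colours for total, light and heavy RNA. The ferritin rows spread widest, with *Fth1* between 87.5 FPKM in the WD heavy library and 1022 FPKM in the WD light library.

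Ferritin mRNA was the part of the group that lay furthest toward the light fraction. *Fth1*, the ferritin heavy chain with the iron-oxidising centre, lies at chr1:226030874-226049929 (Rnor_6.0, as in the deposited table). It was at 502 FPKM in CD total RNA, 997 in the CD light fraction and 105 in the CD heavy fraction, from 361, 490 and 48 fragments. In WD livers it was at 425 FPKM in total RNA, 1022 in the light fraction and 87.5 in the heavy fraction, from 292, 1092 and 41 fragments. On both diets the light library was the highest of the 3 and the heavy library the lowest.

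The heavy to light ratio of *Fth1* FPKM was 0.105 (95% counting interval 0.0765 to 0.142) in CD livers and 0.0856 (0.0611 to 0.117) in WD livers. These are log2 ratios of -3.25 and -3.54 after 0.1 FPKM was added to each value. Of the 10201 loci compared, 6.23% had a lower ratio in CD and 7.15% in WD. Among the 647 loci that averaged 100 FPKM or more, 3.86% and 4.48% were lower. The Cufflinks bounds of the *Fth1* light and heavy values nevertheless overlapped on both diets.

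The FPKM that 1 fragment is worth falls with the length Cufflinks used for a locus, so it can be set beside the heavy to light ratio. In CD total RNA 1 fragment was worth 1.39 FPKM for *Fth1*, more than for 88.8% of 7818 loci, and 5.50 FPKM for *Hamp*, more than for 97.5%. *Hamp*, by this measure the shorter of the pair, had a heavy to light ratio above 1 on both diets. Its counting intervals, 0.730 to 2.01 in CD and 0.993 to 2.10 in WD, both include 1. Across those 7818 loci the Spearman correlation of this value with the heavy to light ratio was -0.066 in CD and -0.07 in WD, both values being computed from the same libraries. Among the 1955 loci where 1 fragment was worth most, which include *Fth1*, 13.9% had a CD ratio at or below that of *Fth1* and 17.0% a WD ratio at or below it. Among the 1955 loci where 1 fragment was worth least these shares were 2.35% and 2.15%. The part of transcript length in the ferritin ratio was not tested.

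The diets differed little in *Fth1*. Its total RNA level was 0.846 times as high in WD as in CD livers (95% counting interval 0.722 to 0.990, computed without scaling). The *Fth1* log2 change was -0.24, and -0.15 with all libraries scaled to an equal FPKM sum. Its light fraction level differed by 0.036 on the log2 scale (ratio interval 0.920 to 1.14), or by -0.32 with all libraries scaled to an equal FPKM sum, and its heavy fraction level by -0.26 (0.536 to 1.29). The ribosome density change, meaning the WD heavy to light ratio over the CD heavy to light ratio, was 0.814 with an interval of 0.516 to 1.28 that includes 1, and the log2 change turned from -0.30 to 0.03 with that scaling. No *Fth1* change with diet reached the thresholds taken from the study's methods and applied here to WD over CD, a ratio of at least 1.5 or at most 0.75.

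The locus at chr1:101448330-101449829, on which *Ftl1*, the ferritin light chain that helps the iron core form, is merged with AC128792.1, was also far toward the light fraction. In CD livers it was at 117 FPKM in total RNA, 230 in the light fraction and 11.8 in the heavy fraction, from 47, 63 and 3 fragments. In WD livers it was at 130, 190 and 38.3 FPKM, from 50, 113 and 10 fragments. As with *Fth1*, the light value was the highest and the heavy value the lowest on both diets.

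The heavy to light ratio of the merged locus was 0.0511 (95% counting interval 0.0103 to 0.156) in CD livers, the only pair of values within this group whose Cufflinks bounds did not overlap. It was 0.202 (0.0942 to 0.385) in WD livers. The ribosome density change was 3.94 with an interval of 0.965 to 23.0 that includes 1, since it rests on 3 fragments in the CD heavy library. The total RNA ratio was 1.11 (0.732 to 1.69). RefSeq names 5 pseudogenes of *Fth1* and 14 of *Ftl1* in the rat (assembly GRCr8), and how reads shared with such copies were counted is not given in the sources used here, so both ferritin levels are uncertain in that respect.

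**Figure D2:**
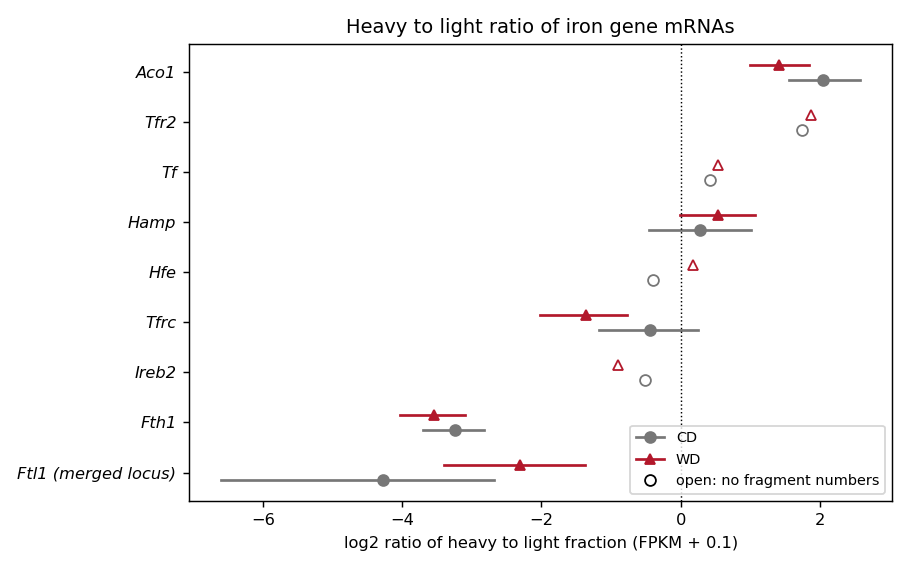
Log2 ratio of heavy to light fraction (FPKM + 0.1) for each iron gene in CD (grey circles) and WD livers (red triangles), with lines for the 95% counting interval and open points where no fragment numbers could be inferred. *Fth1* and the merged *Ftl1* locus lie left of 0 with intervals that do not reach it, and *Aco1* lies right of 0 on both diets.

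Transferrin and its receptors spanned the range between the fractions. *Tf* (chr8:111673546-111721333) was at 15269.5, 9459 and 12630 FPKM in CD total, light and heavy RNA and at 13782, 8089.8 and 11734 FPKM in WD livers. It was lower in each WD library than in its CD counterpart, by 0.15, 0.23 and 0.11 on the log2 scale. Its heavy to light ratios were 1.34 in CD and 1.45 in WD. The lower Cufflinks bound of *Tf* was 0 in every library, so these differences lie far within its bounds.

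*Tfrc*, the receptor that takes iron-loaded transferrin into most cells, was the least abundant of the genes in CD total RNA. Its locus is chr11:71397382-71419223. It was at 8.77 FPKM in CD and 13.2 in WD total RNA, from 46 and 66 fragments. In the light fraction it was at 12.3 and 20.4 FPKM, from 44 and 159 fragments, and in the heavy fraction at 8.99 and 7.90 FPKM, from 30 and 27 fragments. The WD value was thus the higher in total and light RNA and the lower in heavy RNA.

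The *Tfrc* ratio of WD to CD was 1.5 in total RNA (95% counting interval 1.01 to 2.24), and 1.49 once 0.1 FPKM was added to both values, which is just under the threshold of 1.5. It was 1.66 (1.18 to 2.38) in the light fraction and 0.879 (0.503 to 1.53) in the heavy fraction. These intervals were computed without scaling the libraries to an equal sum. With that scaling the *Tfrc* log2 change was 0.68 in total RNA, 0.38 in the light fraction and -0.21 in the heavy fraction. The light fraction change was then not past the threshold. The heavy to light ratio was 0.732 (0.445 to 1.19) in CD and 0.387 (0.247 to 0.585) in WD livers, and the ribosome density change was 0.529 (0.272 to 1.03), an interval that includes 1. In the WD light library, where *Tfrc* was at its highest, the erythroid marker sum was also at its highest; the hemoglobin genes *Hba1* and *Hbb* were at 163 and 242 FPKM there, while *Alas2* was at its lowest, 7.18 FPKM. The part of red cell RNA in the *Tfrc* values was not tested.

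*Tfr2*, the liver receptor that senses transferrin saturation, lay toward the heavy fraction. Its locus is chr12:22177381-22194299, and it was at 58.5, 46.0 and 155 FPKM in CD total, light and heavy RNA. The WD values were 66.5, 51.7 and 190 FPKM. The heavy library was the highest on both diets, and each WD value was above its CD counterpart, though in the light fraction the log2 change turned to -0.18 with all libraries scaled to an equal sum. The heavy to light ratio was 3.37 in CD and 3.68 in WD livers, higher than for 89.9% and 93.2% of loci. The log2 changes with diet were 0.18 in total RNA, 0.17 in the light and 0.30 in the heavy fraction, all within the bounds of Cufflinks. The 2 transferrin receptors therefore lay on opposite sides of a ratio of 1 on both diets, with the reservation that the *Tfrc* interval in CD includes 1.

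*Hamp* mRNA, at chr1:89368020-89369960, was spread nearly evenly over the fractions. It was at 346, 257 and 311 FPKM in CD total, light and heavy RNA, from 63, 32 and 36 fragments. In WD livers it was at 454, 285 and 413 FPKM, from 79, 77 and 49 fragments. Every WD value was above its CD counterpart, but none by more than the counting error, and in the light fraction the log2 change turned to -0.21 with libraries scaled to an equal sum. The WD to CD ratio was 1.31 in total RNA (95% counting interval 0.930 to 1.86), 1.11 in the light fraction (0.724 to 1.73) and 1.33 in the heavy fraction (0.847 to 2.10). The heavy to light ratio was 1.21 (0.730 to 2.01) in CD and 1.45 (0.993 to 2.10) in WD livers, and the ribosome density change was 1.20 (0.634 to 2.28).

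*Hfe*, the hemochromatosis protein that binds transferrin receptors, lies at chr17:43661221-43669985. It was at 14.3, 12.0 and 9.10 FPKM in CD total, light and heavy RNA and at 19.9, 14.1 and 16.0 FPKM in WD livers. Each WD value was the higher, by 0.47, 0.23 and 0.81 on the log2 scale, with the light fraction turning to -0.12 under equal-sum scaling, and all 3 pairs had overlapping Cufflinks bounds. The heavy fraction change, a ratio of 1.75 with the pseudocount, was past the threshold of 1.5. *Hfe* was the gene whose heavy to light ratio crossed 1 between the diets, at 0.758 in CD and 1.13 in WD livers. All 8 Kupffer cell and macrophage markers were also higher in WD than in CD total RNA, with a sum of 123 against 89.3 FPKM. In the heavy fraction their sum was 181 against 144, though *Adgre1* and *Cd5l* were lower. The sinusoidal endothelial marker sum was 169 against 133 FPKM in total RNA and 109 against 119 in the heavy fraction. *Stab1* went the other way in total RNA, and *Stab1*, *Stab2* and *Kdr* did in the heavy fraction. The stellate cell marker sum was 51.5 against 48.5 FPKM in total RNA and 78.4 against 55.3 in the heavy fraction. Most of the latter difference was *Lrat*, at 48.4 against 27.4 FPKM. *Pdgfrb* and *Col1a1* were lower in both kinds of RNA, and *Des* in the heavy fraction. The hepatocyte marker sum was 60983 against 67704 FPKM in total RNA and 117708 against 110982 in the heavy fraction. *Cps1* and *Tat* went the other way in total RNA, and *Apoa1* and *Ttr* did in the heavy fraction. The part of these cell types in the *Hfe* difference was not tested. In these bulk samples fewer cells of a type and less RNA per cell cannot be told apart.

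*Aco1*, which as an apoprotein is iron regulatory protein 1 and with its iron-sulfur cluster is cytosolic aconitase, was the gene whose counting intervals lay below 1 in both total and heavy RNA when the diets were compared. Its locus is chr5:56425023-56481218. It was at 49.3, 16.5 and 68.6 FPKM in CD total, light and heavy RNA, from 184, 42 and 163 fragments. In WD livers it was at 34.7, 15.7 and 41.9 FPKM, from 124, 87 and 102 fragments. The light values were close to each other and the lowest on both diets, while total and heavy RNA were lower in WD livers.

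The *Aco1* ratio of WD to CD was 0.705 in total RNA (95% counting interval 0.557 to 0.890) and 0.611 in the heavy fraction (0.472 to 0.787), both intervals below 1, and 0.953 in the light fraction (0.652 to 1.41). Its heavy to light ratio was 4.17 (2.95 to 6.00) in CD, higher than for 92.8% of loci, and 2.67 (1.99 to 3.60) in WD livers, higher than for 87.4%. The ribosome density change was 0.641, past the threshold, with an interval of 0.400 to 1.02 that includes 1. With heavy over total RNA in place of heavy over light, the change was 0.867 (log2 -0.21) and not past the threshold. The Cufflinks bounds overlapped for each of these pairs. With all libraries scaled to an equal sum, the *Aco1* log2 change was -0.41 in total RNA and -0.31 for density, neither past a threshold. In the heavy fraction it was -0.73 with that scaling.

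*Ireb2*, iron regulatory protein 2, lies at chr8:59420122-59501118. It was at 14.2, 17.8 and 12.4 FPKM in CD total, light and heavy RNA and at 11.2, 15.2 and 8.07 FPKM in WD livers. Its 3 WD values were each below the CD value, by 0.34, 0.22 and 0.62 on the log2 scale, and its light value was the highest on both diets. The heavy fraction ratio of 0.652 was past the threshold of 0.75. Its heavy to light ratio was 0.700 in CD and 0.531 in WD livers, so the 2 iron regulatory protein mRNAs lay on opposite sides of 1, *Aco1* above and *Ireb2* below. Both were lower in WD total RNA, with only the *Aco1* difference past a threshold.

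**Figure D3:**
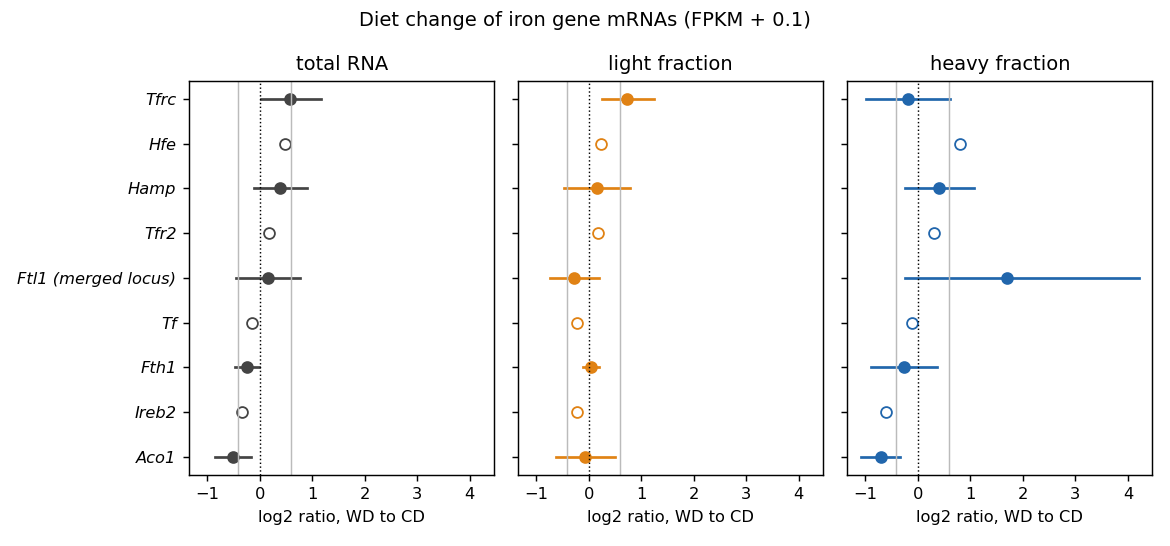
Log2 ratio of WD to CD (FPKM + 0.1) for each iron gene in total, light and heavy RNA, with lines for the 95% counting interval, open points where no fragment numbers could be inferred, and grey lines at ratios of 0.75 and 1.5. *Aco1* lies below 0 in total and heavy RNA with intervals that do not reach 0, and *Tfrc* lies above 0 in total and light RNA.

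Over the 8 genes, the shares past the thresholds between the diets were no larger than over all loci. In total RNA 4 genes were higher and 4 lower in WD livers, with a median log2 change of 0.02 against 0.02 over all 10201 loci. No gene of the group reached a ratio of 1.5, which 17.7% of loci did, and 1 (*Aco1*) was at or below 0.75, as were 22.7% of loci. For ribosome density 4 genes were higher and 4 lower, with a median log2 change of -0.09 against -0.02 over all loci. None reached 1.5, against 27.7% of loci, and 2 (*Tfrc*, *Aco1*) were at or below 0.75, against 36.1%. When all libraries were scaled to an equal FPKM sum, the median over all loci shifted by 0.30 for ribosome density and the median over the 8 genes became 0.24.

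In the light fraction 1 gene (*Tfrc*) reached 1.5 and none was at or below 0.75, against 25.9% and 26.8% of loci. In the heavy fraction 1 gene (*Hfe*) reached 1.5, against 21.7% of loci, and 2 (*Aco1*, *Ireb2*) were at or below 0.75, against 25.8%. Counting intervals, all computed without scaling to an equal sum, lay beyond 1 for fewer loci. In total RNA 3.59% lay above 1, as did *Tfrc*, and 3.76% below 1, as did *Fth1* and *Aco1*. For ribosome density no interval among the 4 genes lay beyond 1, against 5.46% of loci above and 4.51% below. In the light fraction that of *Tfrc* lay above 1, as did 8.46% of intervals, and none lay below, against 9.2%. In the heavy fraction none lay above 1, against 3.48%, and that of *Aco1* lay below, as did 3.99%. With heavy over total RNA as the measure of density, *Tfrc* was the 1 gene at or below 0.75, against 31% of loci, and none reached 1.5, against 26.7%.

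The position between the fractions varied over a wider range among these genes than any change with diet. In CD livers the heavy to light ratio reached 1.5 for 2 of the 8 genes (*Aco1*, *Tfr2*), against 32.9% of loci, and was at or below 0.75 for 3 (*Fth1*, *Ireb2*, *Tfrc*), against 36.6%. In WD livers the same genes were past the same thresholds, 2 above, against 31.4% of loci, and 3 below, against 38.5%. By counting intervals *Aco1* lay above 1 on both diets, as did 15.5% of loci in CD and 19.1% in WD. *Fth1* lay below 1 on both diets, as did 13.6% of loci in CD and 17.3% in WD, and *Tfrc* lay below 1 in WD livers. The log2 ratios ran from -3.25 to 2.05 in CD and from -3.54 to 1.88 in WD livers, with medians of -0.06 and 0.36 against 0.01 and 0 over all loci.

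**Figure D4:**
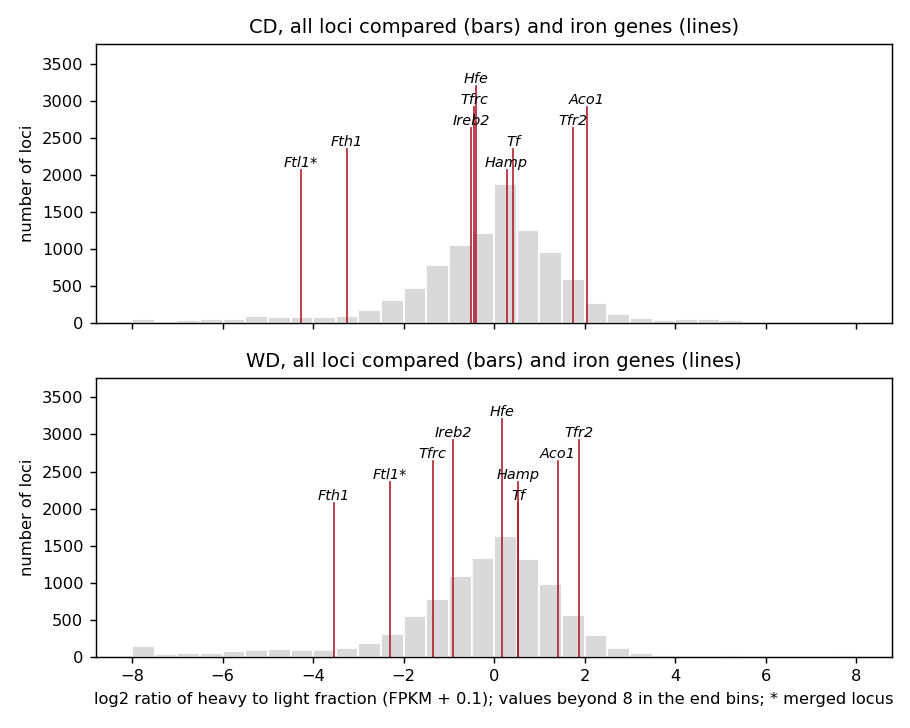
Number of loci (grey bars, 10201 in each panel) by log2 ratio of heavy to light fraction in CD (top) and WD livers (bottom), with a red line for each iron gene. *Fth1* stands in the left tail of both panels, *Aco1* and *Tfr2* in the right shoulder, and *Hamp* and *Tf* near the centre.

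The genes with the pattern over the 6 libraries most like that of *Fth1* were *Wwp1*, *Zfp91* and *Arl5a*, with root mean square differences of 0.15, 0.19 and 0.20 in log2 units among 3646 loci that averaged 10 FPKM or more. *Wwp1*, a ubiquitin ligase, was at 37.1, 69.1 and 9.64 FPKM in CD total, light and heavy RNA, and its heavy to light log2 ratios were -2.83 in CD and -3.33 in WD. *Zfp91* had log2 ratios of -2.75 and -3.25, and *Arl5a* -2.93 and -3.49. The genes most like *Hamp* were *Ankrd17*, *Tspyl1* and *Mgst1*, with differences of 0.05, 0.09 and 0.10. *Mgst1*, a microsomal glutathione transferase and the most abundant of them, was at 1838 FPKM in CD and 2042 FPKM in WD total RNA, with heavy to light log2 ratios of 0.03 and 0.55.

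Of the 8 mRNAs listed for an iron-responsive element, 6 could be compared, and they did not share a position between the fractions. In CD livers *Fth1* (log2 ratio -3.25), *Epas1* (-0.87), *Alas2* (-0.57) and *Tfrc* (-0.45) lay toward the light fraction, while *Slc11a2* (0.12) lay slightly toward the heavy fraction. *Alas2*, erythroid aminolevulinate synthase, carries the element ahead of the coding sequence as ferritin does, and was at 19.7 FPKM in the CD light and 13.2 FPKM in the CD heavy fraction. In WD livers *Alas2* had a log2 ratio of 0.63, against -3.54 for *Fth1*. The *Alas2* heavy to light ratio intervals, 0.327 to 1.33 in CD and 0.708 to 3.33 in WD, both include 1. *Alas2* had the highest ribosome density change of this list, 1.21 on the log2 scale with a ratio interval of 0.800 to 6.71, and *Tfrc* the lowest. The *Alas2* change turned to -0.20 with heavy over total RNA. In total RNA *Slc11a2*, the ferrous iron importer DMT1, was the lowest, at 3.67 FPKM in CD and 1.22 in WD livers, and *Tfrc* the highest.

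The heme synthesis enzymes lay toward the heavy fraction in CD livers. All 9 were compared, 8 had a CD heavy to light ratio above 1 and 6 reached 1.5, against 32.9% of loci, with a median log2 ratio of 0.71 that was 0.14 in WD livers. Of the 7 with counting intervals, 3 (*Urod*, *Cpox*, *Fech*) had a CD ratio interval above 1, against 15.5% of loci. In WD livers 1 did (*Urod*), against 19.1%. *Urod*, uroporphyrinogen decarboxylase, had the highest CD ratio (log2 1.74, ratio interval 1.47 to 8.61). With diet the total RNA changes were small: 2 were higher and 7 lower in WD livers, and *Fech*, ferrochelatase, had the highest change (19.6 to 25.1 FPKM from CD to WD). For ribosome density 3 were higher and 6 lower, from *Alas2* to *Uros* (log2 -2.13, at 6.00 FPKM in CD and 0.976 FPKM in WD heavy RNA). None of the 7 with counting intervals had one beyond 1 for either change.

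The 8 genes of heme breakdown and of heme or hemoglobin scavenging all had a CD heavy to light ratio of at least 1.5, against 32.9% of loci, with a median log2 ratio of 1.25, and 6 of the 8 did in WD livers, against 31.4% of loci. Of the 5 with counting intervals, only 1 (*Blvrb*) had a CD ratio interval above 1, against 15.5% of loci. In WD livers 2 did (*Hmox1*, *Blvrb*), against 19.1%. *Hp* and *Hpx*, the plasma scavengers haptoglobin and hemopexin, were at 6171 and 3817 FPKM in CD total RNA and at 6036 and 3797 FPKM in WD total RNA. *Hmox1*, the inducible heme oxygenase, had the highest total RNA change, from 3.20 FPKM in CD to 7.37 FPKM in WD (log2 1.18), and the highest ribosome density change (log2 1.66), its heavy fraction value being 11.1 FPKM in CD and 19.7 FPKM in WD. Its density change turned to -0.35 with heavy over total RNA. *Lrp1*, the hemopexin receptor, had the lowest total RNA change (log2 -0.15). *Cd163*, the macrophage receptor for hemoglobin and haptoglobin, had the lowest ribosome density change (log2 -1.88) at levels of 0.369 to 3.17 FPKM. None of the 5 with counting intervals had one beyond 1 for the total RNA or ribosome density change. The Kupffer cell and macrophage marker sum, to which *Cd163* belongs, moved with *Hmox1* in total RNA. So did the sinusoidal endothelial and stellate cell marker sums, while the hepatocyte and erythroid sums were lower in WD livers. Single markers departed from these sums: *Stab1*, *Pdgfrb* and *Col1a1* were lower, and *Cps1*, *Tat* and *Hbb-b1* higher, in WD total RNA. The part of these cell types in the *Hmox1* difference was not tested.

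Among the 11 of 14 iron transport and reduction genes compared, 6 were higher and 5 lower in WD total RNA. *Slc39a14*, the importer of iron not bound to transferrin, was at 45.4 FPKM in CD and 55.6 FPKM in WD total RNA, with a ratio interval of 1.02 to 1.46. *Slc11a2* was the lowest. *Lcn2*, lipocalin 2, had the highest abundance and the lowest density change, but it was listed at 0 in both CD total and CD light RNA and at 2.66 FPKM in WD total RNA. *Slc25a37*, mitoferrin 1, had the highest density change and was listed at 0 in CD heavy RNA and at 1.95 FPKM in WD heavy RNA, so no fold is given for either. *Cp*, ceruloplasmin, the ferroxidase that works with ferroportin, was at 883 FPKM in CD and 998 FPKM in WD total RNA.

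Of 7 genes of ferritin delivery and iron sensing, 4 were compared. In total RNA none of the 4 reached 1.5, against 17.7% of loci, and none was at or below 0.75, against 22.7%. They ran from *Fbxl5*, the ubiquitin ligase subunit that removes iron regulatory protein 2 (log2 -0.11), to *Ncoa4* (0.12). *Ncoa4*, the receptor that takes ferritin to lysosomes, had a heavy to light ratio that was log2 1.5 in CD and 0.66 in WD livers. Its ribosome density change was -0.84, with a ratio interval, 0.324 to 0.952, that lay below 1, as did 4.51% of intervals over all loci. With heavy over total RNA the *Ncoa4* change was -0.28 and its interval, 0.489 to 1.38, included 1. *Fbxl5* had the highest density change, 0.41, which turned to -0.26 with heavy over total RNA.

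Of 22 symbols listed for hepcidin regulation, of which *Hfe2* and *Hjv* name the same gene, 19 were compared. In total RNA 7 were higher and 12 lower in WD livers, 1 reached 1.5 and 6 were at or below 0.75, beside the 17.7% and 22.7% of all loci. *Smad1*, a transducer of bone morphogenetic protein signals, was the lowest, at 23.9 FPKM in CD and 13.5 FPKM in WD livers (ratio interval 0.376 to 0.835), and *Smad5*, of the same class, the highest, at 4.99 and 8.27 FPKM. *Hfe2*, hemojuvelin, the coreceptor of that pathway, had a ribosome density change of 0.85 on the log2 scale with a ratio interval of 1.26 to 2.59, its light fraction value being 124 FPKM in CD and 81.3 FPKM in WD livers. With heavy over total RNA its change was -0.06 and the interval, 0.661 to 1.39, included 1. *Furin*, a protease that cleaves prohepcidin and hemojuvelin, had a density change of -0.77 with a ratio interval of 0.424 to 0.804, and -0.54 (0.493 to 0.964) with heavy over total RNA. Among the 18 genes of this list with density intervals, 1 lay above 1 and 1 below, against 5.46% and 4.51% of loci. No interval was computed under equal-sum scaling, which shifted the median density change over all loci by 0.30. *Bmpr2* had the lowest density change (log2 -1.79, and -0.10 with heavy over total RNA), with a ratio interval of 0.045 to 1.76 that includes 1. That value rests on 7 fragments in CD and 4 in WD heavy RNA. The symbol *Bmpr2* is on 2 loci, of which only the more abundant was used. *Smad6* had the highest density change, being listed at 0 in CD heavy RNA and at 3.44 FPKM in WD heavy RNA. *Tmprss6*, the protease that removes hemojuvelin from the surface, resembled *Tfr2* in lying toward the heavy fraction, with log2 ratios of 1.55 in CD and 1.20 in WD.

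Of the 20 iron-sulfur cluster assembly genes 19 were compared, with a median log2 change of 0 in total RNA and 0.39 for ribosome density. The density median was -0.02 over all loci, and for this list it was 0.05 with heavy over total RNA. None of the 18 density intervals in this list lay beyond 1. *Nubp2* was higher in WD total RNA (13.2 to 26.9 FPKM, ratio interval 1.12 to 3.81). *Isca1* (15.9 to 7.20 FPKM, ratio interval 0.217 to 0.895) and *Lyrm4* (10.1 to 2.11 FPKM, 0.0223 to 0.981) were lower. *Hscb* had the lowest total RNA change, from 6.97 to 1.21 FPKM, without an interval beyond 1. Their positions between the fractions were far apart: in CD livers *Hspa9*, the mitochondrial chaperone, had a log2 ratio of 2.55 and *Fdx1l*, ferredoxin 2, a ratio of -3.68. *Fdx1l* also had the highest density change (log2 1.89, ratio interval 0.686 to 38.5), and *Isca2*, listed at 0 in 4 libraries, the lowest.

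**Figure D5:**
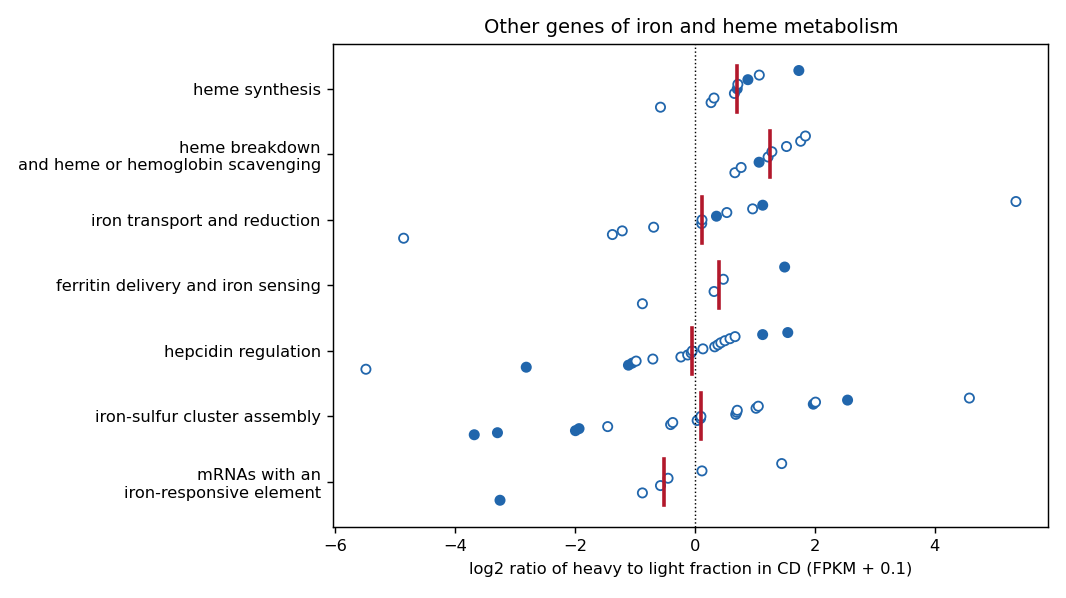
Log2 ratio of heavy to light fraction in CD livers (FPKM + 0.1) for the compared genes of 7 lists of iron and heme metabolism, 1 point per gene, filled where the 95% counting interval lies beyond 1, with a red bar at each list's median. The 8 heme breakdown and scavenging genes all lie right of 0, and *Fth1* is the leftmost point in the row of mRNAs with an iron-responsive element.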

How the data were processed

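RNA sequencing was analysed in 6 libraries of rat liver, 1 for each diet and RNA class, each pooled from 3 rats. The authors depleted ribosomal RNA, used TopHat for alignment to Rnor_6.0, and deposited FPKM values per locus from Cufflinks and Cuffnorm, each with a lower and an upper bound. The annotation is not given in the sources used here.

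The iron genes and the lists were chosen with earlier results of these data known. Genes were matched by symbol. Of 33022 loci, the 10201 that had a symbol, an estimate marked as successful and an average of 1 FPKM or more were compared, and log2 ratios were computed after adding 0.1 FPKM. The named genes were all members, the highest and lowest change of each list, and each gene with a counting interval beyond 1. Some list genes that this rule names are not reported here. Values per fragment, further examples in the lists and heavy to light ratios of list genes were added after values were seen.

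Fragment numbers were inferred as whole numbers, within 0.02, from 1 factor for each library and 1 step for each gene. They were found for 80.1% of 12459 genes, and for 12.8% of 2000 genes after values were jittered by 1%. Any multiple of these numbers would fit as well. Intervals, computed without scaling the libraries to an equal sum, are exact: Clopper-Pearson for 2 libraries, and a conditional odds ratio for 4. They were tested on simulated data with counting error only and with the true fragment numbers given. Errors in inferred numbers, and differences between rats or libraries, were not part of that test. The CD light and CD heavy libraries enter several ratios, so these share error. Python 3.11.15, numpy 2.4.6, pandas 2.3.3, scipy 1.17.1 and matplotlib 3.10.9 were used.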

Additional observations from a re-analysis of the deposited data

Results flagged for a closer look

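In 3 places the diet change had opposite signs in the light and the heavy fraction, with 1 library behind each value, and the difference was not tested. The *Fth1* log2 change from CD to WD was 0.036 in the light and -0.26 in the heavy fraction. With all libraries scaled to an equal sum it was -0.32 and -0.29, so the signs no longer differed. That of *Tfrc* was 0.73 in the light and -0.18 in the heavy fraction. That of the merged *Ftl1* locus was -0.28 in the light and 1.69 in the heavy fraction, the latter from 3 fragments in CD and 10 in WD.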

How the results depend on the processing

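No paired analysis was possible because every group is 1 library and no result comes from a test. For the 8 genes, no value past a threshold changed sign under the alternatives run, but smaller values did. The median log2 value over the 8 genes moved where all libraries were scaled to an equal sum, to 0.24 for ribosome density, 0.66 for the WD heavy to light ratio and -0.26 for the light fraction change (from -0.09, 0.36 and 0.09), where 3 genes then passed a threshold in place of 1. With heavy over total RNA, 1 gene passed a threshold for density in place of 2. Scaling also turned the sign of *Fth1* for density (0.03) and of *Fth1*, *Tfr2*, *Hamp* and *Hfe* in the light fraction (-0.32, -0.18, -0.21 and -0.12), and centring that of the abundance median (-0.0041). With the merged *Ftl1* locus counted as a ninth gene, an alternative chosen after seeing the data, the medians were 0.15 for abundance, 0.12 for density, -0.40 for the CD and 0.18 for the WD heavy to light ratio. The remaining 89 values over the group stayed close to those reported. For single genes 377 values were classed as unchanged and 15 as moved. Those classed as unchanged include sizeable shifts under rescaling, such as *Hamp* density from 0.26 to 0.59 and the sign turn of *Fth1* density. With rescaling *Tfrc* passed the abundance threshold (log2 0.68) and not the light fraction one (0.38), *Aco1* passed neither the abundance (-0.41) nor the density threshold (-0.31), *Hfe* (0.90) and *Hamp* (0.59) passed for density, *Tf* and *Hamp* (both 0.84) for the WD heavy to light ratio, *Hfe* (-0.42) for the CD one, and *Tf*, *Aco1* and *Ireb2* in the light fraction (-0.58, -0.42 and -0.57). Centring gave a density change of 0.59 for *Hfe*, also past the threshold. With a pseudocount of 1 FPKM *Tfrc* no longer passed for the CD heavy to light ratio (-0.41). Depth limits the smallest values: 3 fragments lie behind the merged *Ftl1* locus in CD heavy RNA.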
